A study of Mus musculus with 18 samples.

Results

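A set of 10 genes of the membrane skeleton and of actin filament capping were followed in maps of methylated DNA from mouse heart after myocardial infarction (MI). They were the spectrin genes Sptan1, Sptbn1 and Sptb, the adducin gene Add1, the ankyrin genes Ank1, Ank2 and Ank3, and the capping protein genes Capzb, Capza1 and Capza2. They were 10 of 21887 protein-coding genes, and each was taken with 2000 bases on either side of its span in the GRCm38.p6 gene table. The set was chosen by measured values, namely the peak scores of a region in Sptan1 and a region in Capzb that had peaks in every library at 72 h after MI and no peak in sham. The comparison of 72 h with sham is therefore given below as values, with no test, for all 10 genes, and so is every comparison of Sptan1 and Capzb with sham.

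The study used male C57BL/6JR mice aged 12 weeks, with 3 mice in each of 6 groups and 1 library per mouse. Under sodium pentobarbital, MI was produced by ligation of the left anterior descending artery of the heart, and tissue was taken after 10 min, or after 1, 6, 24 or 72 h. Sham mice went through the operation with the suture passed but not tied, and the labels name no transgene. The labels of the MI samples give pentobarbital doses that rise in sample order from 50 to 63 mg/kg, within groups as well as between them. Those of sham give none, and the study design gives 50 for the mice. Methylated DNA immunoprecipitation sequencing (MeDIP-seq) pulls down sheared DNA with an antibody against 5-methylcytosine, so a peak marks a stretch where methylated fragments piled up and not a percentage of methylated molecules. Cardiomyocytes are named as the cell type in the labels of this heart tissue, but no isolation of cells is described there. In such bulk tissue, fewer cells with a methylated stretch and less methylation of that stretch in each cell cannot be told apart.

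Spectrins are long rods that pair and join short actin filaments into a net under the cell membrane, and adducin helps to fasten spectrin to the filament ends. Ankyrins tie that net to proteins in the membrane, and in heart muscle cells ankyrin-B and ankyrin-G hold ion channels, pumps and exchangers in place. The capping protein CapZ is a pair of an alpha and a beta subunit that closes the fast-growing end of actin filaments, which in striated muscle sits in the Z-disc of the sarcomere.

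The 18 peak lists held between 34255 and 60653 peaks, and the lowest score was 50 in each. Peaks of all lists that shared at least 1 base were merged into 152196 regions, of which 174 lay at the 10 genes. Per library, between 32 and 82 peaks fell on the 10 genes. Expressed per 1000 peaks of the list, that was 0.976 ± 0.127 (SD, n = 3) in sham and, in order of time after MI from 10 min to 72 h, 1.18 ± 0.0615, 1.03 ± 0.0759, 0.940 ± 0.107, 1.10 ± 0.0851 and 1.24 ± 0.141. The lists differed in length between libraries, and no read counts were used here, so sequencing depth is unknown.

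The sequence just upstream of the listed transcription starts shows where methylated DNA was and was not picked up. RefSeq promoter sequences (GRCm38.p6) were matched for 8 of the 10 genes, with 12 windows of 250 bases before a listed start, and none was matched for Ank1 and Ank3. MeDIP acts on methylated cytosine, most of which in mammals is followed by guanine, so the windows are shown 5′ to 3′ on the gene's strand, in lower case with each CG in capitals. The first 3 windows lie before starts of Sptan1 (chr2:29965310-29965559, plus strand, 31 CG), Capzb (chr4:139193861-139194110, plus strand, 11 CG) and Ank2 (chr3:127499116-127499365, minus strand, 19 CG), and no library had a peak on any of them. The last 2 lie before other listed starts of Ank2 (chr3:126943387-126943636 with 2 CG and chr3:127409059-127409308 with 3 CG, both minus strand), and these were the windows that a peak touched.
Sptan1 upstream: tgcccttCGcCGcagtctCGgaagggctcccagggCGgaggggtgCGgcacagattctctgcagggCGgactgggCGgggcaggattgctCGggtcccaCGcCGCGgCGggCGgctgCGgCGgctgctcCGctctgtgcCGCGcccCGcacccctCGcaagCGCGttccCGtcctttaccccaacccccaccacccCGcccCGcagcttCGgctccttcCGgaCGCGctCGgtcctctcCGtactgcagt
Capzb upstream: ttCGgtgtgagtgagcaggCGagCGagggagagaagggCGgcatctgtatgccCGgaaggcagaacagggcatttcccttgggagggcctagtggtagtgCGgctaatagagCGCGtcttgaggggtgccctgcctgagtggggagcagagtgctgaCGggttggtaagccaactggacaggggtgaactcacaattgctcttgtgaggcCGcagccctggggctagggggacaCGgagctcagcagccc
Ank2 upstream, no peak: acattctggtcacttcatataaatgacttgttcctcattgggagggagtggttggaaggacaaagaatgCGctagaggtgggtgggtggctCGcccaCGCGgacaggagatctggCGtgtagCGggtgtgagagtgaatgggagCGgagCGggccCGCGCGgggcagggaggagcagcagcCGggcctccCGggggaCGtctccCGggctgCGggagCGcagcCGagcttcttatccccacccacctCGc
Ank2 upstream, peaks in 3 libraries at 72 h and 1 of sham: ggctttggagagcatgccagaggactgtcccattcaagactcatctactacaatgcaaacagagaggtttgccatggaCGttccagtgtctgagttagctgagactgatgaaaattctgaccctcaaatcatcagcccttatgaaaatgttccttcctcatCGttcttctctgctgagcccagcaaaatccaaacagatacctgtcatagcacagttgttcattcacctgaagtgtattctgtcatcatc
Ank2 upstream, peaks in 1 library each at 1 h, 6 h and 24 h: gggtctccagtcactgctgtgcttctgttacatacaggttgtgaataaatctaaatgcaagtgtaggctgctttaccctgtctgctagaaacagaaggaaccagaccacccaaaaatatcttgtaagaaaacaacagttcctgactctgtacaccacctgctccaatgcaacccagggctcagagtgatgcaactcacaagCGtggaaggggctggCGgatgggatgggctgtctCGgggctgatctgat

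Of the windows shown, the 3 without peaks held from 11 (Capzb) to 31 CG (Sptan1) and the 2 touched ones held 2 and 3. The median over the windows of all genes was 10. Another 2 windows with few CG, in Sptbn1 and Ank2, were not touched either. Of the 8 windows of these genes with 11 or more CG, 0 were touched by a peak of any library, against 1.91% of 10103 such windows over all genes. Of the 4 windows with 5 or fewer CG, 2 were touched, against 8.40% of 8036 over all genes. These limits on CG were set after the values had been seen. Without the split by CG, 2 of the 12 windows were touched (16.7%), against 5.88% over all genes. A CG was present in 93.4% of all 21263 windows. Over the 100 regions of genes with a listed start the median distance to one was 43719.5 bases, and 3 regions lay within 1000 bases. Long genes leave room for large distances, and these values were not compared with those over all genes.

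The first touched Ank2 window lay under a region at chr3:126942196-126943857. Its peak score was 54.2 in sham replicate 1, 59.99, 58.22 and 56.4 in the 3 libraries at 72 h, and no other library had a peak there. The second was overlapped by chr3:127409164-127409685 only in the part of the window farthest from the listed start. The CG in capitals of that window lie nearer the start, outside the region. This region had a score of 94.84 in 1 library of the 1 h group, 82.7 in 1 of the 6 h group and 101.6 in 1 of the 24 h group. Neither region was present in all libraries of one group and absent from all libraries of sham.

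**Figure D1:**
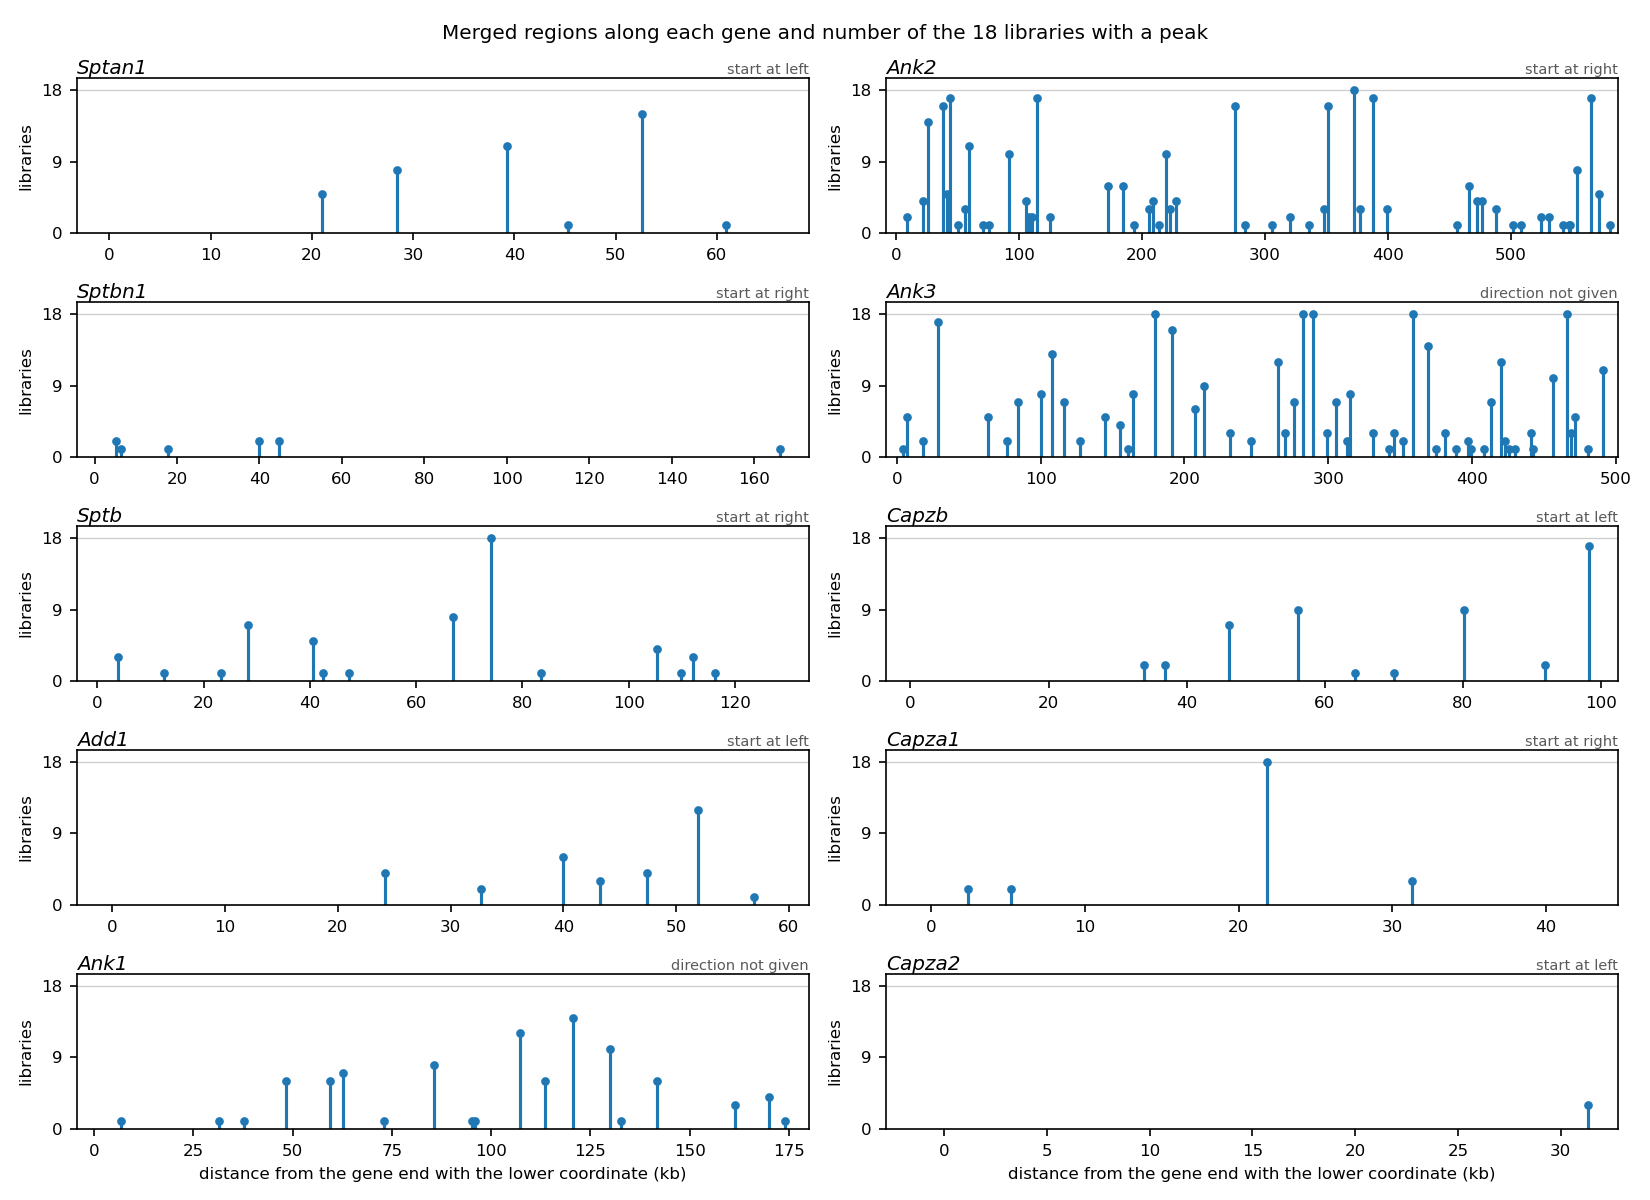
Each stem is 1 merged region, placed by its distance in kilobases from the end of the gene with the lower coordinate, and its height is the number of the 18 libraries with a peak. The direction of transcription is written above each panel where the promoter or gene table gave it. Capza2 had 1 region, outside the gene, and Ank2 and Ank3 held 53 and 55.

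Among the spectrin genes, Sptan1, which encodes the nonerythroid alpha chain found in most cells, lay at chr2:29965560-30031451 (plus strand) and had 6 regions. Peaks touched it in 17 of 18 libraries, and sham replicate 3 had none. The share of its span under peaks was 1.29%, 2.43% and 0% in the sham libraries and 4.36%, 4.32% and 2.79% in the 72 h libraries, so the 2 groups did not overlap. The gene was chosen through this comparison, and how many of all genes show no overlap between 72 h and sham was not counted. Group means were 1.24 ± 1.21% in sham and, from the earliest to the latest MI time, 2.79 ± 1.28%, 3.25 ± 1.18%, 3.00 ± 1.68%, 3.92 ± 2.06% and 3.82 ± 0.893% (SD, n = 3). The 4 times from 10 min to 24 h overlapped with one another. In the limma F-test over those 4 times, whose 12 libraries played no part in the choice, the group means spanned 0.39 on the log2 scale (adjusted p = 0.998).

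The Sptan1 region that led the choice was chr2:30004059-30005513, 1455 bases wide, within the gene and 38499 bases from the start shown above. Its score was 159.5, 127.7 and 98.26 in the 72 h libraries, and no sham library had a peak. At each earlier time 2 of the 3 libraries had a peak: 81.49 and 73.85 in the 10 min group, 57.21 and 58.02 after 1 h, 59.16 and 61.6 after 6 h, and 67.04 and 73.54 after 24 h. The region was thus present in 11 libraries, with every 72 h score above every earlier one. That order follows in part from the choice, which used the 72 h scores. The 72 h lists held 15869, 15625 and 9711 peaks with a score of at least 100, against 5927 to 11413 at the earlier MI times. By mean score at 72 h (128.5 ± 30.61) it stood in place 2 among 1095 regions of the whole series with peaks in 3 of 3 libraries at 72 h and 0 of 3 in sham. The number of libraries with a peak did not vary over the 4 earlier times (exact permutation p = 1). With each list cut to the same number of peaks, all 3 libraries at 72 h still had a peak, while 2 of 3 had one when a score of at least 100 was required or when peaks had to cover 50% of the region.

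The neighbouring Sptan1 region at chr2:30017357-30019006 was present in 15 libraries, including 2 of sham. Its scores were 77.44 and 95.27 in sham and 123.0, 106.0 and 86.37 at 72 h, and these ranges overlapped. Over the 18 libraries, no other region of the series had exactly the presence pattern of the region that led the choice. The closest was chr3:116922882-116924819 at Palmd, followed by chr6:144033560-144034572 at Sox5, each of which differed from it in 1 library. The next, chr3:43090330-43091638, lay at no protein-coding gene and differed in 2.

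Sptbn1, which encodes the beta chain that pairs with the Sptan1 product, lay at chr11:30099395-30268384 (minus strand) and carried few peaks. It had 6 regions, or 3.47 per 100 kb, and 6 of 18 libraries had a peak. The share of its span under peaks was 0% in 2 sham libraries and 0.526% in the other, 0% in all 9 libraries from 10 min to 6 h, 0%, 0.479% and 0.517% after 24 h, and 0.846%, 0.809% and 1.28% after 72 h. The 72 h libraries each had 2 peaks and stood above all others, although no region was shared by all 3. How many of all genes have this order was not counted. Averaged over the 12 earlier MI libraries, 0.083% of the span was under peaks, and 4.92% of 2584 genes with a span from 0.5 to 2 times as long had as little or less (median 1.90%). The peak with the highest score was at chr11:30138630-30139903, with 88.01 in 1 library at 72 h and 51.12 in 1 at 24 h. With peaks in 2 of the 12 earlier MI libraries, Sptbn1 fell under the filter of 3 libraries for the F-test.

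Sptb, which encodes the beta chain best known from red blood cells, lay at chr12:76580488-76710547 (minus strand) and had 14 regions. All libraries had between 1 and 5 peaks on it. A region of 4281 bases at chr12:76652450-76656730 was present in all 18, with a mean score of 105.1 ± 29.64 (SD over libraries) and a range from 51.51 to 148.2. Both the lowest and the next lowest score were from 10 min libraries, at 51.51 and 55.7, while the third 10 min library had 119.0. The share of the Sptb span under peaks was 3.50 ± 1.37% in sham and, in order of time, 2.88 ± 0.462%, 2.71 ± 0.506%, 3.04 ± 1.11%, 3.39 ± 2.05% and 3.57 ± 1.56%, with every group overlapping sham.

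Add1 encodes alpha-adducin, and lay at chr5:34573664-34632308 (plus strand) with 7 regions. Its share under peaks was 2.29%, 3.82% and 0% in sham, 6.85%, 1.58% and 4.94% in the 10 min group, 1.26%, 2.42% and 4.32% after 1 h, 0%, 3.09% and 0% after 6 h, 0%, 1.35% and 1.23% after 24 h, and 4.31%, 4.36% and 2.93% after 72 h. The 24 h libraries were low and lay below every 10 min and every 72 h library, and sham covered both ranges in part. This order was not counted over all genes. The group means of the 4 earlier times spanned 1.80 on the log2 scale, highest at 10 min (limma F-test, adjusted p = 0.977). The most frequent region, chr5:34625000-34626272, was present in 12 libraries, among them all those at 10 min and at 72 h. The highest score, 93.57, was at chr5:34616207-34617556 in 72 h replicate 1, a region present in 3 libraries.

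**Figure D2:**
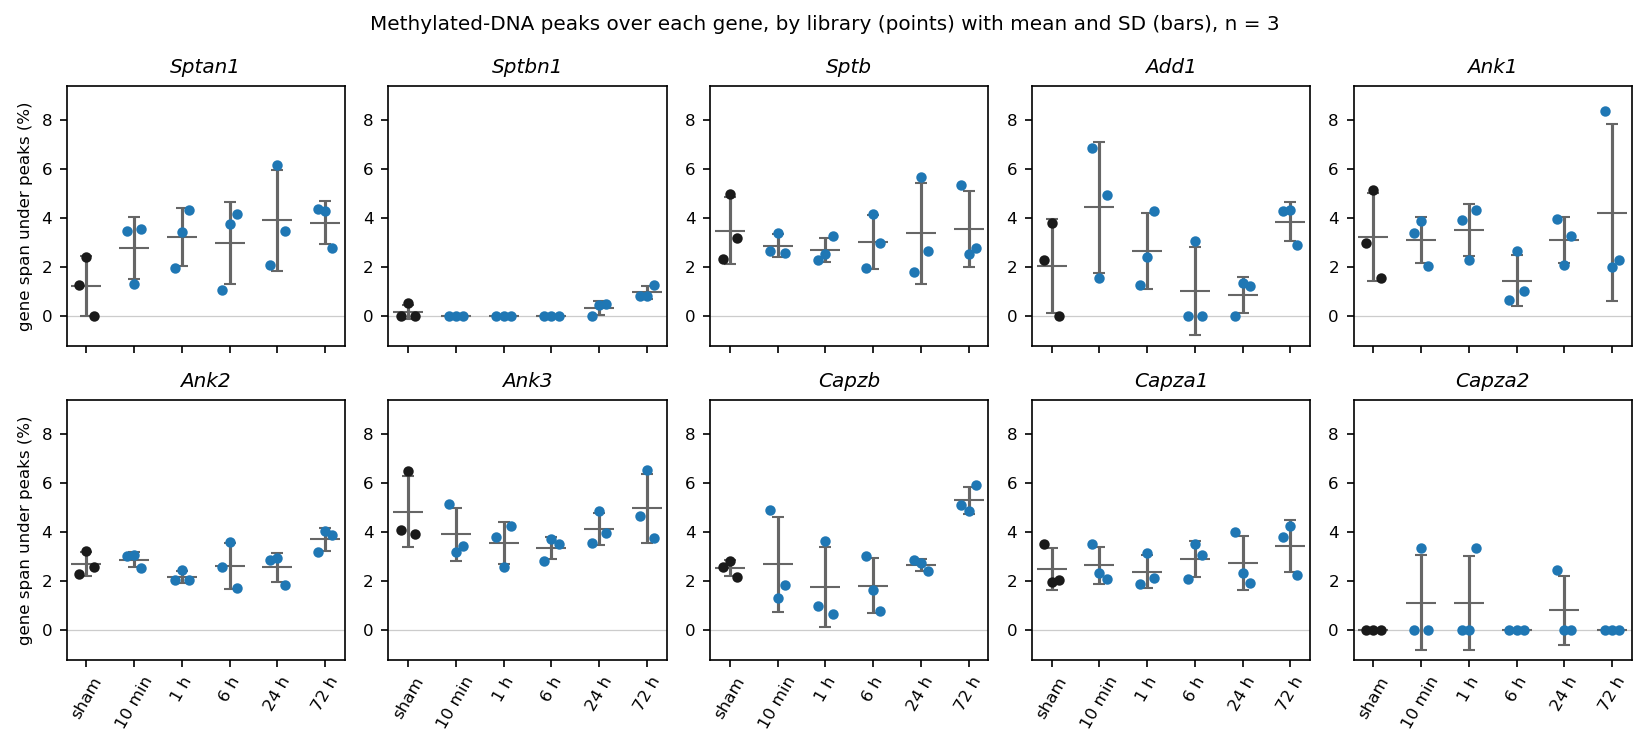
The vertical axis is the percentage of each gene's span, flanks included, that lay under peaks; points are libraries, horizontal marks are group means and bars are SDs (n = 3). Black points are sham. At 72 h, the time used for the choice, Capzb lay between 4.85 and 5.92%, Sptbn1 between 0.809 and 1.28% and Sptan1 between 2.79 and 4.36%. Each was above its sham libraries, and how many of all genes are so was not counted. In Sptb, Add1, Ank1, Ank2, Capza1 and Capza2, libraries overlapped between sham and every MI time.

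The ankyrin genes have the longest spans of the set and held most of the 174 regions. Per 100 kb, there were 10.6 regions in Ank1, 9.10 in Ank2 and 11.1 in Ank3. Sptb had 10.4 and Add1 11.2, and the remaining genes between 2.94 and 8.75. Ank1 encodes ankyrin-R, best known from red blood cells, and lay at chr8:22974836-23150501 with 19 regions. Its share under peaks was 2.99%, 5.17% and 1.58% in sham, 3.40%, 3.88% and 2.07% in the 10 min group, 3.93%, 2.30% and 4.33% after 1 h, 0.660%, 2.64% and 1.05% after 6 h, 3.97%, 2.08% and 3.30% after 24 h, and 8.39%, 1.99% and 2.29% after 72 h. By its mean, 6 h was the lowest group, and 72 h replicate 1, with 11 peaks, was the highest library. At 6 h the mean was 1.45 ± 1.05%, and 1 of its libraries overlapped those at the other earlier times. Against sham the 6 h difference was -1.06 on the log2 scale (SE 0.494, limma adjusted p = 0.790), with 2 of the 3 libraries below every sham library. In the F-test over the earlier times the range was 1.26, highest at 1 h (limma adjusted p = 0.907). Neither difference passed the adjusted threshold of 0.05.

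A region of Ank1 at chr8:23022567-23023700 was present in 1 sham library, 2 libraries at 10 min and all 3 at 1 h, and in none from 6 h to 72 h. The exact permutation test of its presence over the earlier times gave p = 0.0455 (adjusted p = 1). Another, chr8:23059521-23061554, had scores of 64.97, 52.17 and 56.65 in sham and no peak at 72 h. Over the 4 times between, 1, 2, 1 and 1 libraries had a peak. These sham scores lay close to the lowest deposited score, and with the lists cut to equal numbers of peaks 1 of the 3 sham libraries still had the peak. The highest Ank1 score, 96.99, was at chr8:23094648-23096228, a region present in 14 libraries.

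Ank2, which encodes ankyrin-B, lay at chr3:126921607-127500347 (minus strand), and 9.10 regions per 100 kb fell on it. The libraries had 15, 16 and 13 peaks in sham, 19, 15 and 15 in the 10 min group, 11, 13 and 12 after 1 h, 15, 21 and 9 after 6 h, 19, 19 and 11 after 24 h, and 23, 24 and 19 after 72 h. All 72 h libraries were above all sham libraries in number of peaks, an order that was not counted over all genes. In share of the span, 72 h had 3.17%, 4.07% and 3.89% and sham 2.28%, 3.23% and 2.58%, so that 1 sham library lay within the 72 h range. The mean over all protein-coding genes was 2.40 ± 0.380% in sham and 2.59 ± 0.237% at 72 h. Over the 4 earlier times the group means of Ank2 spanned 0.39 on the log2 scale (limma F-test, adjusted p = 0.994).

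At chr3:127293546-127295186 Ank2 had a peak in all 18 libraries, with a mean score of 102.2 ± 39.25. The scores were 66.89, 75.68 and 77.47 in sham, 57.28, 61.95 and 85.82 in the 10 min group, 103.2, 58.18 and 98.22 after 1 h, 128.9, 126.5 and 93.22 after 6 h, 160.5, 129.0 and 94.82 after 24 h, and 135.8, 205.5 and 81.65 after 72 h. All 9 scores from 6 h onward lay above all 3 sham scores, and those at 10 min and 1 h overlapped sham. A peak score also depends on the depth of its library, which is unknown, so this order is given as a description. A nearby region, chr3:127298296-127299326, had scores of 81.42, 58.05 and 51.0 at 10 min and no peak in any other library (exact permutation p over the earlier times = 0.0182, adjusted p = 1). With equal list lengths 2 of the 3 libraries at 10 min had it, and with a score of at least 100 required none did.

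Ank3, which encodes ankyrin-G, lay at chr10:69533486-70027436 and had 11.1 regions per 100 kb. Over the 12 earlier MI libraries 3.74% of its span was under peaks, and 92.6% of 678 genes of like span had as much or less (median 1.44%). The share was 4.84 ± 1.45% in sham and, in order of time, 3.92 ± 1.08%, 3.56 ± 0.867%, 3.35 ± 0.460%, 4.13 ± 0.651% and 4.98 ± 1.41%. At 6 h every library (2.83%, 3.71% and 3.50%) lay below every sham library (4.08%, 6.52% and 3.92%), and every other MI time overlapped sham. Over all protein-coding genes the mean share was 2.09 ± 0.352% at 6 h and 2.40 ± 0.380% in sham. How many of all genes separate at 6 h in this way was not counted. The 6 h difference from sham was -0.49 on the log2 scale (SE 0.247, limma adjusted p = 0.790). Over the earlier times the Ank3 means spanned 0.29 (limma F-test, adjusted p = 0.998).

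Ank3 held 5 of the 8 regions of these genes that were present in all 18 libraries. They were chr10:69711750-69713641, chr10:69815183-69816376, chr10:69821587-69824325, chr10:69891988-69892793 and chr10:69998757-70000362, with mean scores of 78.43, 98.3, 116.7, 112.0 and 92.51. At 72 h it also had 2 regions with peaks in 3 of 3 libraries and 0 of 3 in sham. The first, chr10:69617280-69618510, scored 64.76, 68.69 and 66.46 at 72 h and was present in 2 libraries after 1 h, 1 after 6 h and 1 after 24 h. The second, chr10:70001959-70002812, scored 73.57, 57.47 and 54.04 at 72 h and was present in no other group. By mean score they stood in places 696 and 892 of 1095, far below the regions of Sptan1 and Capzb. With equal list lengths each was present in 1 of the 3 libraries at 72 h, and with a score of at least 100 required in none.

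Other Ank3 regions had peaks at some times and not at others. The widest, chr10:69985358-69994561 with 9204 bases, had scores of 73.27, 54.07 and 69.65 in sham and no peak at 10 min, and at the later times 2, 2, 1 and 2 libraries had one. With equal list lengths it was present in 2 of the 3 sham libraries. At chr10:69838426-69839500 a peak was present in 2, 0, 0 and 3 libraries in order of the 4 earlier times (exact permutation p = 0.0455, adjusted p = 1). The same p and adjusted p were found for Sptb at chr12:76646397-76648380, with 2, 3, 0 and 0 libraries in the same order.

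Among the capping protein genes, Capzb, which encodes the beta subunit of CapZ, lay at chr4:139192899-139291820 (plus strand) and had 9 regions. The share of its span under peaks was 2.59%, 2.84% and 2.17% in sham, 4.92%, 1.32% and 1.86% in the 10 min group, 0.990%, 3.63% and 0.642% after 1 h, 3.01%, 1.66% and 0.786% after 6 h, 2.87%, 2.73% and 2.40% after 24 h, and 5.13%, 4.85% and 5.92% after 72 h. The 72 h libraries lay above all those of sham and of the times from 1 h to 24 h, and 10 min replicate 1 reached into their range. The gene was chosen through a region at 72 h, and how many of all genes have this order was not counted. The number of peaks went the same way, with 6, 5 and 5 at 72 h and 1 to 4 in every other library. Over the 4 earlier times the group means spanned 0.73 on the log2 scale (limma F-test, adjusted p = 0.994).

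The Capzb region that led the choice was chr4:139238407-139239631, within the gene and 44296 bases from the start shown above. Its scores were 135.4, 132.3 and 103.5 at 72 h and 110.3, 82.47 and 67.97 at 24 h, it scored 62.94 in 1 library of the 10 min group, and the sham, 1 h and 6 h libraries had no peak. By mean score at 72 h (123.7 ± 17.61) it stood in place 4 of 1095. The presence over the earlier times, 1, 0, 0 and 3 libraries, gave an exact permutation p of 0.0727 (adjusted p = 1). With a score of at least 100 required, the 72 h peaks were present in 3 libraries and the 24 h peak in 1. In 3 other regions of the series the presence pattern was identical, and in 24, these 3 included, it differed in at most 1 library. The 3 were chr12:17112205-17113180 and chrY:73396202-73397150, at no protein-coding gene, and chr2:109986152-109987086 at Lgr4.

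The region at the far end of Capzb, chr4:139290348-139292024, crossed the end of the gene and was present in 17 libraries, with sham replicate 3 the exception. Its mean score was 101.0 ± 27.5. The highest scores there were at 1 h and 6 h, with 154.9 and 137.9, in libraries that had no peak at the region described before. The 2 regions of the gene thus had different patterns over time. That follows in part from the choice, because the first was picked for peaks at 72 h and none in sham.

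**Figure D3:**
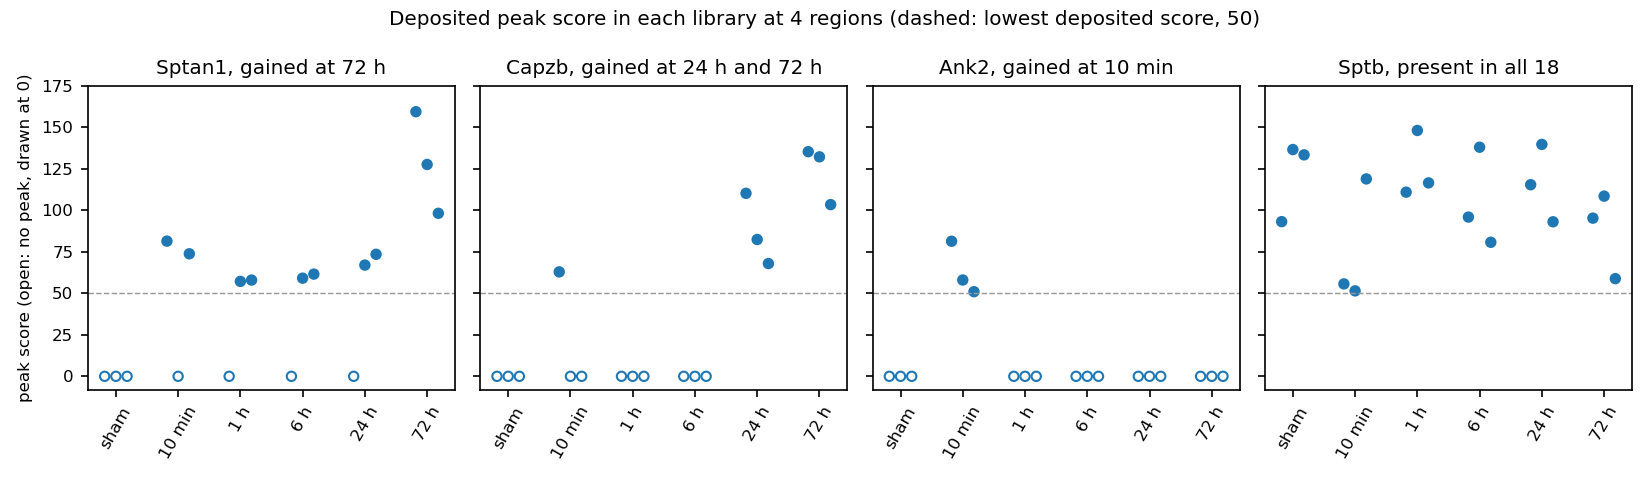
The vertical axis is the deposited peak score in each of the 18 libraries, open points at 0 are libraries with no peak, and the dashed line is the lowest deposited score of 50. The Sptan1 and Capzb regions, which were chosen by their scores at 72 h, were highest there (98.26 to 159.5 and 103.5 to 135.4). The Ank2 region had peaks at 10 min and in no other group, and the Sptb region had a peak in every library.

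Capza1 and Capza2 encode the alpha subunits that pair with the Capzb product. Capza1, at chr3:104822781-104864505 (minus strand), had 1 region present in all 18 libraries, chr3:104843914-104845316, with a mean score of 109.3 ± 24.83. Its share under peaks was 2.50 ± 0.869% in sham and 3.44 ± 1.06% at 72 h, with overlapping libraries (3.50%, 1.95% and 2.04% against 3.81%, 4.25% and 2.24%), and the means of the earlier times spanned 0.19 on the log2 scale (limma F-test, adjusted p = 1). Capza2, at chr6:17637010-17666972 (plus strand), had no peak within the gene. Its only region, chr6:17667758-17668901, lay in the flank beyond the gene's end and had scores between 50.52 and 56.3 in 1 library each of the 10 min, 1 h and 24 h groups.

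Regions of these genes recurred over libraries about as regions elsewhere did. Of the 174, 8 were present in all 18 libraries (4.60%, against 5.09% of all regions), 49 in 1 library (28.2% against 29.2%) and 37 in 9 or more (21.3% against 25.2%). The median of the highest score was 149.9 for regions in all libraries and 56.91 for regions in 1. Over all regions these medians were 186.8 and 58.39. Regions of these genes in 2 to 8 libraries had a median of 77.85, and those in 9 to 17 a median of 114.6. A highest score is taken over more libraries where a region is present in more, so these medians rise in part by construction. The median for regions in 1 library lay near the lowest deposited score, and absence from a list does not show absence of methylation. Of the 174 regions, 171 lay within the gene and none touched another protein-coding gene, although the flanked spans of Sptan1, Sptb, Add1 and Capza1 reach into a neighbour. Exons and introns were not analysed here.

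**Figure D4:**
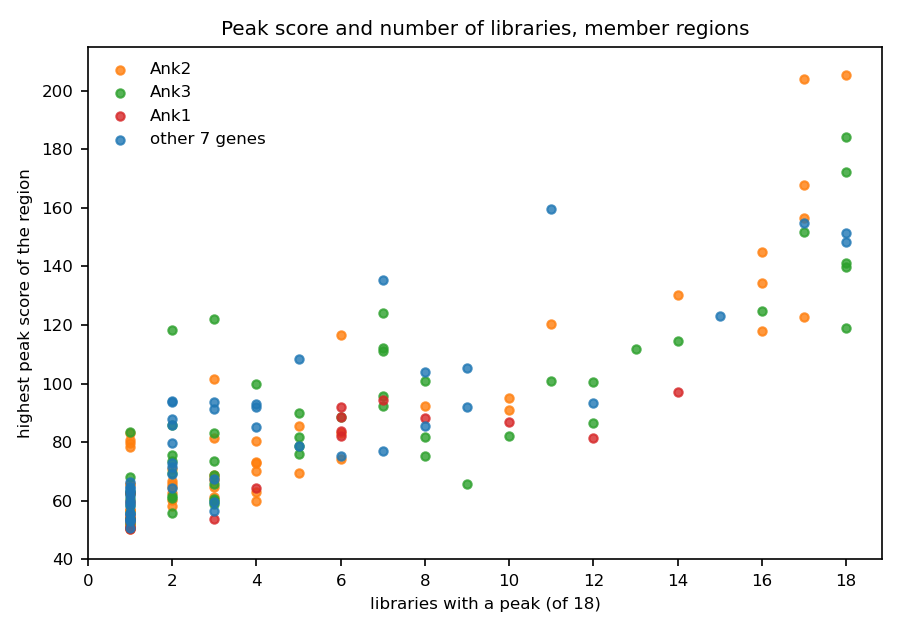
Each point is 1 of the 174 regions, the horizontal axis is the number of the 18 libraries with a peak and the vertical axis is the highest peak score of the region. Regions in 1 library had a median of 56.91 and those in all 18 a median of 149.9, a rise that comes in part from taking the highest of more scores. The blue point at 11 libraries and 159.5 is the Sptan1 region, and that at 7 libraries and 135.4 the Capzb region.

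Counts of regions gained (3 of 3 libraries of a time and 0 of 3 in sham) or lost (the reverse) were small at every time. With 3 mice against 3, an exact permutation test cannot go below p = 0.1, so these are counts with no test. At 10 min, 1 of 174 was gained (0.216% of all regions) and 1 lost (0.624%), in Ank2 and Ank3. After 1 h none was gained (0.225%) or lost (0.553%), and the same held after 6 h (0.201% and 0.706%). At 24 h the Capzb region was gained (0.393%) and none was lost (0.524%). That region was chosen for having no peak in sham, so the sham side of this gain was fixed by the choice. At 72 h, which the choice of genes used, 4 were gained (0.719%), namely the regions of Sptan1 and Capzb and the 2 of Ank3, and 1 was lost (0.397%), in Ank1. Just outside the limit at 72 h, 3 of the 174 regions were present in 3 libraries with 1 in sham, in Ank1, Ank2 and Ank3 (1.72%, against 1.83% of all regions). A further 12 were present in 2 libraries with 0 in sham, among them 2 each in Sptbn1 and Add1 (6.90% against 3.52%). In the other direction, 4 were absent at 72 h and present in 2 sham libraries (2.30% against 2.41%).

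Over the earlier times, which were not used for the choice, no region and no gene of the 10 passed an adjusted threshold. Of 56 regions that could be tested, 4 had an unadjusted exact permutation p under 0.05 (7.14%, against 2.11% of 50101 regions), and 0 passed after Benjamini-Hochberg adjustment (0.0% of all regions). The smallest p this permutation test can give is 0.00649. With 50101 regions adjusted together and 1059 of them under 0.05, no region could pass, so nothing is concluded from that 0. Those 4 were the regions in Sptb, Ank1, Ank2 and Ank3 given above. In the limma F-test on bases under peaks, 9 of the 10 genes could be tested and 0 were called (0.0% of 13245 genes), with 1 at an unadjusted p under 0.05 (4.79% of all genes). The median p was 0.578 for the 9 and 0.499 for all genes.

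For the 8 genes other than Sptan1 and Capzb, each earlier time was also set against sham, with the same sham libraries in every comparison. At 10 min 0 of 8 were called by limma (0.0% of 14581 genes), with a median difference of 0.05 on the log2 scale against -0.09 over all genes. After 1 h 0 of 8 were called (0.00686%), with a median of -0.16 against -0.14. The 6 h group gave 0 (0.0%), with -0.33 against -0.11, and the 24 h group 0 (0.0%), with -0.02 against -0.05. The lowest limma adjusted p of the 8 was 0.958, 0.932, 0.790 and 0.973 in order of time. At an unadjusted p under 0.05 there was 1 gene of the 8 in the 6 h group, Ank1, and none at the other times, where over all genes 5.38%, 5.09%, 6.1% and 4.6% passed in order of time. At 72 h, the time used for the choice, limma called 0.048% of all genes after adjustment and 5.53% without.

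A wider list of 33 genes of the same structures, among them other spectrins, adducins, protein 4.1 family members, tropomodulins and capping regulators, gave the same count. Of these, 29 could be tested, and 0 passed the adjusted limma threshold in the F-test or in any of the 4 contrasts with sham. The lowest F-test p-values were 0.0338 for Lmod1, which encodes the filament-nucleating protein leiomodin, 0.0343 for Sptbn4, another beta spectrin, and 0.103 for Tmod4, a tropomodulin that caps the slow-growing end of actin filaments (adjusted p = 0.977 for each by limma).

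Peaks at marker genes of heart cell types are given for sham and 72 h as values, with no test. The share under peaks was 1.24 ± 0.557% in sham and 2.08 ± 0.548% at 72 h for the 4 cardiomyocyte genes, and 0.501 ± 0.640% (range 0 to 1.22%) and 0.956 ± 0.129% (0.808 to 1.03%) for the 4 leukocyte genes. For the 4 fibroblast genes it was 2.64 ± 0.830% and 3.60 ± 1.37%, and for the 3 endothelial genes 3.87 ± 1.30% and 4.34 ± 1.95%. The leukocyte genes were highest at 1 h, with 1.61 ± 0.168% (1.44 to 1.78%), above every sham library. Of these 4 genes, only 1 had a peak in at least 3 of the 18 libraries, so their values rest mainly on 1 gene. How many of all genes separate from sham at 1 h was not counted. Peaks on DNA do not measure how many cells of a type were present, and the part of cell composition in the values of the 10 genes at 72 h was not tested.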

How the data were processed

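MeDIP-seq was done on 18 mouse heart libraries, 3 mice in each of 6 groups. Per the labels' protocols, sheared DNA was immunoprecipitated and sequenced in paired ends. Bowtie2, MACS2 and mm10 are named in the submitters' processing notes, with no versions, options or input control. The authors deposited 1 peak list per library, so peaks were called per library. Each peak's score was assigned by the caller in the authors' processing, per the peak names in the deposited lists, and its scale is not stated. Its minimum of 50 in every list is what 10 times the negative log10 of p at a set limit would give, and it was used only to describe and filter peaks.

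The 10 genes, the gene lists and the tests were chosen with earlier results of these data known. Gene spans came from GRCm38.p6, the same assembly as mm10. Peaks of all lists sharing at least 1 base were merged. Bases under peaks per gene (log2, 500 added) were tested with limma 3.58.1 in R 4.3.3 (trend, robust, Benjamini-Hochberg at 0.05), on genes with a peak in at least 3 libraries. Presence of regions with a peak in 3 to 9 of the 12 libraries from 10 min to 24 h was tested by exact enumerated permutation. The scripts were tested on simulated data. All 10 genes were named, and of their regions those gained, lost, present in 18 libraries, past an unadjusted p of 0.05 or highest in score; of the wider list the 3 lowest p, and for the regions that led the choice the 3 with the most similar presence. The most alike pair of lists shared a Jaccard index of 0.414 in bases, so none was a copy. Alternatives were equal list lengths, a score of at least 100, no flanks, other amounts added, other filters, peak numbers, at least 50% of a region covered, a replicate block and leaving out each library.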

Additional observations from a re-analysis of the deposited data

Results flagged for a closer look

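In 3 genes, all libraries of one MI time lay above the sham mean in share of span under peaks and all libraries of another lay below it; these differences between times were not tested. The same held for 13.6% of the 14581 protein-coding genes with a peak in at least 3 libraries, and for 9.06% of all 21887. For Sptbn1, the 72 h libraries (mean 0.980%) were above the sham mean of 0.175% and the libraries at 10 min, at 1 h and at 6 h (each 0%) were below it, a difference of 0.980 percentage points in each case. For Add1, the 72 h libraries (3.87%) were above and the 24 h libraries (0.862%) below the sham mean of 2.04%, a difference of 3.00 points. For Ank2, the 72 h libraries (3.71%) were above and the 1 h libraries (2.17%) below the sham mean of 2.69%, a difference of 1.54 points. All involve 72 h, the time through which the genes were chosen, and over all protein-coding genes the share was 2.59% at 72 h and 2.40% in sham.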

How the results depend on the processing

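The counts of called genes at adjusted p under 0.05 stayed at 0 in the F-test over the earlier times under every alternative run, and the 10 genes were called in none of the contrasts of an earlier time with sham. The count over all genes, 1 at 1 h, became 0 with equal list lengths, 0 with 2000 bases added and 2 with no filter; those at 6 h and 24 h, 0, became 1 each with a score of at least 100. Leaving out 1 library gave 0 to 3 genes at 10 min (3 without 10 min replicate 1), 0 to 2 at 1 h, 0 to 2 at 6 h and 0 to 0 at 24 h and in the F-test, and 0 to 0 regions. Regions of the 10 genes gained at 72 h, 4, became 2 with equal list lengths and 1 with a score of at least 100, and 4 to 11 without 1 library; the 1 lost became 0 with equal lists, 0 with a score of at least 100, 0 with 50% of the region covered, and 1 to 3. At 10 min the 1 gained became 0 with equal lists, 0 with a score of at least 100, and 1 to 3 without 1 library; the 1 lost became 0 under those settings, 0 with 50% covered, and 1 to 3. At 24 h the 1 gained became 2 and the 0 lost became 1 with 50% covered, and 1 to 3 and 1 to 2 without 1 library. At 1 h leaving out 1 library gave 0 to 3 gained and 0 to 2 lost, and at 6 h 0 to 1 and 0 to 4. A criterion of 3 of 3 loosens to 2 of 2 when a library is left out. The 4 regions with an unadjusted p under 0.05 became 1 with equal lists, 1 with a score of at least 100, and 2 to 4 without 1 library.

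Fitting replicate number as a block changed no call for the 10 genes: over all genes it gave 0 in the F-test and 0, 1, 0 and 0 at 10 min, 1 h, 6 h and 24 h. At 72 h, where 7 of all genes were called, it gave 1, the other settings gave 0 to 13, and leaving out 1 library gave 0 to 3. No pairing of the mice by number was seen, which does not exclude one. The correlations of deviations between same-numbered libraries ran from -0.0749 to 0.0769, and 7 of 18 libraries correlated best with their own number. With 3 mice a group and depth unknown, absence of a peak cannot be told apart from a score just under the authors' limit.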
